A study of Arabidopsis thaliana with 12 samples.

Results

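The clade A protein phosphatases 2C (PP2Cs) of *Arabidopsis thaliana* were followed in salt-treated roots. The 9 genes were chosen by locus, as the family list *ABI1* (AT4G26080), *ABI2* (AT5G57050), *HAB1* (AT1G72770), *HAB2* (AT1G17550), *PP2CA* (AT3G11410), *AHG1* (AT5G51760), *HAI1* (AT5G59220), *HAI2* (AT1G07430) and *HAI3* (AT2G29380), and all 9 were among the 25211 genes tested. Roots came from 7-day-old seedlings of the *agb1-3* mutant (*agb1*), a T-DNA insertion line of the gene for the G protein beta subunit AGB1, and of Col-0 (WT). Both genotypes were sampled after 4 h and after 0 h in liquid medium with 150 mM NaCl, with 3 single-colour Agilent arrays in each of the 4 groups. In the labels the control roots had no time in salt, but in the study's Methods they had spent 4 h in the same medium without NaCl, and the labels were followed. A mutant line of 1 insertion stood for the loss of AGB1, and no complemented line was among these arrays.

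Clade A PP2Cs are the negative arm of abscisic acid (ABA) signalling, the hormone pathway that plants use under drought and salt. When ABA is bound, PYR/PYL receptors dock onto most of these phosphatases and inhibit them, which frees SnRK2 kinases to phosphorylate ABF transcription factors. Several clade A genes are themselves induced by ABA, and this is regarded as a feedback that limits the signal. *ABI1*, *ABI2*, *HAB1* and *HAB2* make up one branch of the clade, and *PP2CA*, *AHG1* and the *HIGHLY ABA-INDUCED* genes *HAI1* to *HAI3* the other.

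The log2 signal used below is the background-corrected spot intensity on the log2 scale, relative to the 75th percentile of the array, so that a gene at 0 is as bright as that percentile. It compares arrays for 1 gene and does not rank genes against each other. Adjusted p-values are those of limma, corrected by the Benjamini-Hochberg method across the 25211 genes, with a threshold of 0.05. Between 74.1% and 76.1% of spots were well above background on the 12 arrays, and none was saturated. The first and second *agb1* replicates before salt were closer to each other than repeated spots on an array, with a spread of 0.0823 against 0.0922, and were counted as 1 sample, which left 11 samples. The other 11 pairs of replicate arrays had spreads of 0.150 to 0.464. *AGB1* had a log2 signal of 0.39 to 0.88 in *agb1* at 4 h and 1.26 to 1.58 in WT at 4 h, and of -0.10 to 0.63 in *agb1* at 0 h and 1.42 to 1.64 in WT at 0 h, so that the groups did not overlap at either time. The *AGB1* signal thus differed by -1.20 before salt (adjusted p = 0.0340) and by -0.74 during salt (adjusted p = 0.112), and where its probe lies relative to the insertion was not examined. All 7 root markers and all 6 green tissue markers (photosynthesis genes) were well above background on all 12 arrays. The log2 of the summed green marker signal was 2.32 to 2.98 in *agb1* at 0 h, below the 3.82 to 4.23 of WT at 0 h, and 3.57 to 4.32 in *agb1* at 4 h against 3.14 to 4.67 in WT at 4 h. The summed root markers were at 4.17 to 5.08 on all arrays. The green marker sum moved with the 0 h difference between genotypes and with the salt response of *agb1*, but not every marker did. At an unadjusted p under 0.05 in limma, 3 of the 6 were lower in *agb1* at 0 h and 3 rose with salt in *agb1*. By the same limit 2 (*RBCS1A* and *RBCS3B*) were lower in *agb1* at 4 h, where the sums overlapped. None of these had an adjusted p below 0.05. Of all genes, 19.3% had an unadjusted p under 0.05 in either direction between genotypes at 0 h. The share was 22.1% with salt in *agb1* and 14.3% between genotypes at 4 h. The part of the green markers in the results below was not tested.

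After 4 h of salt, *ABI1*, *HAI1*, *HAI2* and *HAI3* rose in *agb1* roots, 4 of the 9 clade A genes where 1.41% of all genes tested rose. With the 12 arrays counted as 12 samples, *ABI2* and *HAB1* were called too, 6 of the 9 where 6.62% of all genes rose. In WT roots 8 of the 9 rose, where 8.84% of all genes did, and *AHG1* did not pass the test. *HAI2* entered the test through the 4 h groups alone, and *HAI3* through groups other than WT at 0 h. The rises of *HAI2*, and that of *HAI3* in WT, were thus set in advance by the filter. When only genes well above background on all arrays were tested, 2 of 7 members rose in *agb1* and 6 in WT. Of these genes 1.20% rose in *agb1* and 8.44% in WT. Before salt, *HAI1* alone was called higher in *agb1* than in WT, with 0.591% of all genes called higher. At 4 h limma called 0 of the 9 in either direction, with 1.04% of all genes called lower and 0.615% called higher. By an unadjusted p under 0.05 alone, 8 of the 9 were lower in *agb1* at 4 h, where 6.03% of all genes were. The salt response differed between the genotypes for *HAI1* alone, with a smaller rise in *agb1* and an adjusted p of 0.0497, next to the threshold. In the interaction, 0.0873% of all genes were called lower. The arrays measure RNA of whole roots, so that fewer cells of a type and less RNA per cell cannot be told apart.

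**Figure D1:**
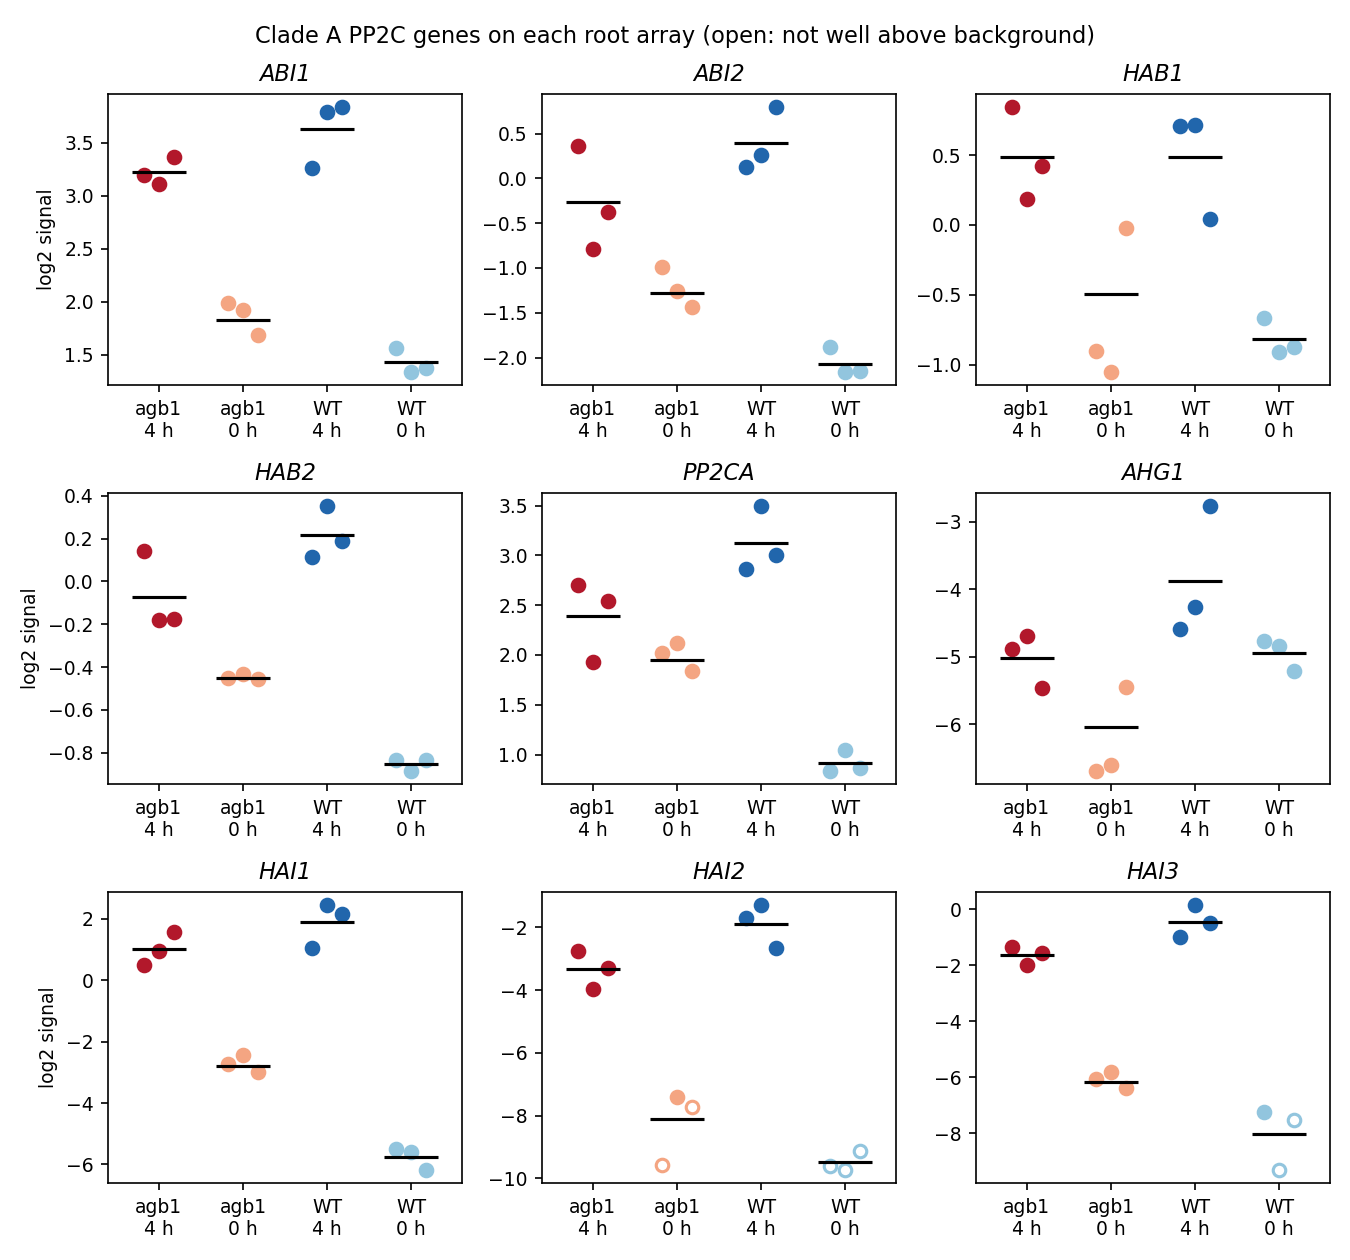
Log2 signal of each clade A PP2C gene on each of the 12 arrays, in *agb1* and WT roots at 4 h and 0 h of 150 mM NaCl, with a panel and an axis of its own for each gene. Points are arrays, open points were not well above background, and bars are group means with replicates 1 and 2 of *agb1* at 0 h counted as 1 sample. In the *HAI1* panel, *agb1* at 0 h (-2.98 to -2.45) lies well above WT at 0 h (-6.18 to -5.50), while the 4 h groups overlap.

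*ABI1*, the founding clade A phosphatase, known from a dominant mutation that makes plants insensitive to ABA, had log2 signals of 3.20, 3.11 and 3.37 in *agb1* at 4 h, against 1.99, 1.92 and 1.69 in *agb1* at 0 h. In WT it had 3.26, 3.79 and 3.84 at 4 h, against 1.57, 1.34 and 1.38 at 0 h. All salt arrays were brighter than all 0 h arrays, the *agb1* 0 h arrays lay above the WT 0 h arrays, and the genotypes overlapped at 4 h. *ABI1* rose by 1.40 ± 0.19 (SE) in *agb1*, or 2.64-fold, with an adjusted p of 0.0118, and by 2.20 ± 0.17 in WT, or 4.59-fold, with an adjusted p of 0.000139. The call in *agb1* was lost when only the 2 *agb1* groups were fitted (adjusted p = 0.0774). Against WT, *agb1* stood 0.40 apart before salt (95% interval -0.04 to 0.83, adjusted p = 0.298) and -0.40 after it (-0.79 to -0.01, adjusted p = 0.335).

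*ABI2*, the close homologue of *ABI1*, had 0.36, -0.78 and -0.37 in *agb1* at 4 h, against -0.99, -1.26 and -1.44 in *agb1* at 0 h. In WT its log2 signal was 0.12, 0.27 and 0.80 at 4 h, against -1.88, -2.16 and -2.16 at 0 h. Each salt group lay above its 0 h group, with a narrow gap in *agb1* and a wide one in WT, and *agb1* lay above WT at 0 h. In *agb1* the difference was 1.02 ± 0.32 and did not pass the test (adjusted p = 0.122). It passed with the 12 arrays counted as 12 samples (0.96, adjusted p = 0.0471). *ABI2* rose by 2.46 ± 0.29 in WT, or 5.51-fold (adjusted p = 0.000860), which was the largest WT fold change in the *ABI* and *HAB* branch.

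*HAB1*, which binds SnRK2 kinases and ABA receptors through the same face, had 0.85, 0.18 and 0.42 in *agb1* at 4 h, against -0.90, -1.05 and -0.02 in *agb1* at 0 h. WT roots had 0.70, 0.71 and 0.04 at 4 h, against -0.66, -0.91 and -0.87 at 0 h. The genotypes overlapped at both times, and replicate 3 of *agb1* at 0 h stood above its group. In *agb1* the salt difference was 0.98 ± 0.32 (adjusted p = 0.130), and it passed the test with the 12 arrays counted as 12 samples (1.14, adjusted p = 0.0324). *HAB1* rose 2.47-fold in WT, by 1.30 ± 0.29 (adjusted p = 0.0142). Leaving out replicate 2 or replicate 3 of WT at 0 h, or replicate 2 of WT at 4 h, ended that call (adjusted p = 0.0512, 0.0552 and 0.0561). The means of the 2 genotypes nearly coincided at 4 h, with a difference of -0.00 and a 95% interval of -0.65 to 0.64.

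*HAB2*, the homologue of *HAB1*, had 0.14, -0.18 and -0.18 in *agb1* at 4 h, against -0.45, -0.43 and -0.46 in *agb1* at 0 h. Its WT arrays gave 0.11, 0.35 and 0.19 at 4 h, against -0.83, -0.88 and -0.83 at 0 h. The 0 h genotypes were clearly apart, with *agb1* higher on every array, and 1 *agb1* array at 4 h reached into the WT range. Salt gave a difference of 0.38 ± 0.14 in *agb1* (adjusted p = 0.162) and a rise of 1.07 ± 0.12 in WT (adjusted p = 0.000842), and at 0 h *agb1* exceeded WT by 0.40 ± 0.14 (adjusted p = 0.164).

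*PP2CA*, a phosphatase known to act on SnRK2 kinases and on ion channels, was measured by 3 probes. The brightest gave 2.71, 1.93 and 2.54 in *agb1* at 4 h, against 2.02, 2.12 and 1.84 in *agb1* at 0 h. In WT roots it gave 2.87, 3.50 and 3.01 at 4 h, against 0.84, 1.04 and 0.87 at 0 h. The *agb1* groups overlapped across time, whereas the WT groups were far apart, and the genotypes did not overlap at 0 h or at 4 h, with *agb1* above WT before salt and below it during salt. In *agb1* the salt difference was 0.44 ± 0.25, with a 95% interval of -0.14 to 1.01 (adjusted p = 0.343). *PP2CA* rose by 2.21 ± 0.23 in WT, or 4.63-fold (adjusted p = 0.000481). *PP2CA* in *agb1* minus WT came to 1.04 ± 0.25 at 0 h (adjusted p = 0.0800) and to -0.74 ± 0.23 at 4 h (adjusted p = 0.174), and the interaction was -1.77 ± 0.34 (adjusted p = 0.0957). The other 2 probes gave interactions of -1.55 and -1.80 and 0 h differences of 0.81 and 0.97. When the 12 arrays were counted as 12 samples, the 0 h difference and the interaction of *PP2CA* passed the test, with adjusted p-values of 0.0186 and 0.0282.

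*AHG1*, a phosphatase best known from seeds, was the one member with no call. It had -4.88, -4.69 and -5.47 in *agb1* at 4 h, against -6.69, -6.60 and -5.44 in *agb1* at 0 h. In WT roots it had -4.59, -4.26 and -2.76 at 4 h, against -4.77, -4.84 and -5.21 at 0 h. WT 4 h replicate 3 stood far above the other WT arrays, and *agb1* lay below WT at both times with no overlap. The genotype difference of *AHG1* was -1.10 ± 0.54 before salt (adjusted p = 0.295) and -1.14 ± 0.48 during salt (adjusted p = 0.323), so that *AHG1* was the one member with a negative difference at 0 h. Salt gave differences of 1.03 ± 0.54 in *agb1* (adjusted p = 0.291) and 1.07 ± 0.48 in WT (adjusted p = 0.145).

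*HAI1*, named for its strong induction by ABA, differed most between the genotypes before salt. It had log2 signals of 0.49, 0.96 and 1.56 in *agb1* at 4 h, against -2.72, -2.45 and -2.98 in *agb1* at 0 h. In WT it had 1.06, 2.46 and 2.15 at 4 h, against -5.50, -5.59 and -6.18 at 0 h. All arrays were well above background, the 4 h ranges of the genotypes overlapped, and the *agb1* 0 h arrays sat between the WT 0 h arrays and all the salt arrays. The rise was 13.8-fold in *agb1* (3.78 ± 0.44, adjusted p = 0.00657) and 200.2-fold in WT (7.65 ± 0.39, adjusted p = 2.01e-05). At 0 h *HAI1* was 7.86-fold higher in *agb1* than in WT (2.97 ± 0.44, adjusted p = 0.0168), beside the lower green marker sum of the same arrays. This call was lost without WT 0 h replicate 1, 2 or 3, with adjusted p-values of 0.0641, 0.0617 and 0.0830 and differences of 3.10, 3.06 and 2.76. Of the 25211 genes, 8, 15 and 11 were called higher at 0 h in these fits, against 149 in the main fit. At 4 h the difference was -0.89 ± 0.39 (adjusted p = 0.344). Normexp background correction, which models the spot background, gave a 0 h difference of 0.43 (adjusted p = 0.691) when fitted to all spots and 1.92 (adjusted p = 0.0485) without the few spots darker than their surroundings. With the fit to all spots the calls of *ABI1*, *HAI1*, *HAI2* and *HAI3* in *agb1* were lost (adjusted p = 0.0789, 0.116, 0.276 and 0.162), with differences of 1.33, 3.50, 2.58 and 3.18, and the WT responses of *HAI1* and *HAI3* were 4.85 and 2.69. That fit called 0.0476% of all genes higher in *agb1* under salt and 0.00793% higher in *agb1* than in WT at 0 h.

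The remaining phosphatases, *HAI2* and *HAI3*, were dim before salt. *HAI2* had -2.76, -3.95 and -3.30 in *agb1* at 4 h, against -9.56, -7.41 and -7.71 in *agb1* at 0 h, where 1 of 3 arrays was well above background. In WT it had -1.70, -1.28 and -2.65 at 4 h and was not well above background on any 0 h array, with measured values of -9.62, -9.73 and -9.12. All salt arrays of *HAI2* stood far above the 0 h arrays, and the genotypes overlapped at 0 h. In *agb1* the fitted rise was 4.76 ± 0.46 (adjusted p = 0.00302), against a 0 h group with 2 arrays not well above background, and it was 2.58 with normexp on all spots. With the software's background correction *HAI2* had only a bound in WT, at least 51.5-fold higher at 4 h than at 0 h. The bound was set by the lowest signal well above background on each 0 h array and was not tested. The adjusted p of 2.17e-05 belongs to the fitted difference of 7.61, which rests on 0 h arrays not well above background. The normexp fit to all spots gave 1.61 for *HAI2* in WT (adjusted p = 0.145). *HAI2* at 4 h was -1.46 ± 0.41 in *agb1* against WT, with no overlap and an adjusted p of 0.132.

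*HAI3* had -1.36, -1.999 and -1.54 in *agb1* at 4 h, against -6.06, -5.80 and -6.40 in *agb1* at 0 h. In WT it had -1.001, 0.16 and -0.48 at 4 h, against -7.22, -9.30 and -7.51 at 0 h, where 1 of 3 arrays was well above background. The salt arrays stood far above the 0 h arrays in both genotypes, *agb1* lay above WT at 0 h and below it at 4 h, and neither pair overlapped. *HAI3* rose by 4.53 ± 0.57 in *agb1* (adjusted p = 0.00905) and was called higher in WT, where the fitted difference of 7.58 ± 0.51 (adjusted p = 7.05e-05) rests on the dim 0 h arrays and was 2.69 with normexp on all spots. Relative to WT, *HAI3* in *agb1* was at 1.85 ± 0.57 before salt (adjusted p = 0.134) and at -1.20 ± 0.51 during salt (adjusted p = 0.334).

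Across the family, the median salt response was 1.03 in *agb1* and 2.21 in WT, while the medians over all genes tested were -0.04 and -0.10. *HAI1*, bright on all arrays, changed by 3.78 in *agb1* and 7.65 in WT, and *HAI2* and *HAI3* are left out of the ranges here because of their dim 0 h groups. The 4 *ABI* and *HAB* genes spanned 0.38 to 1.40 in *agb1* and 1.07 to 2.46 in WT. Salt arrays did not overlap with 0 h arrays for 7 of 9 members in *agb1*, where 16.3% of all genes were higher without overlap, and for 9 of 9 in WT, where 17.7% were. *HAI2* entered the test through the 4 h groups alone, so that it had to differ from both 0 h groups, its *agb1* call included, and *HAI3* entered through groups other than WT at 0 h and had to differ from that one. Among the 7 members well above background on all 12 arrays, 2 were called in *agb1* and 6 in WT when only such genes were tested, of which 1.20% rose in *agb1* and 8.44% in WT. The salt responses of *agb1* and WT are from different arrays, which shared slides.

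**Figure D2:**
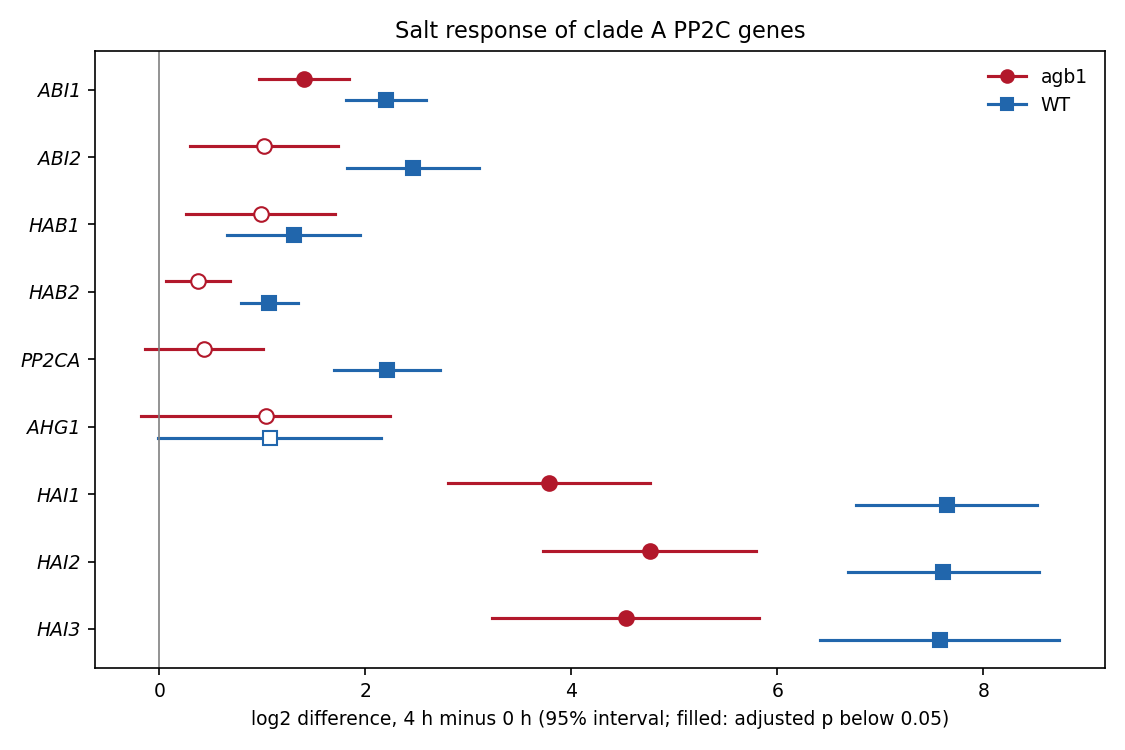
Log2 difference between 4 h and 0 h of 150 mM NaCl for each clade A PP2C gene in *agb1* (circles) and WT (squares), with 95% intervals and filled symbols where the adjusted p was below 0.05. *HAI1* lies at 3.78 in *agb1* and 7.65 in WT, the WT point of *HAI2* rests on 0 h arrays that were not well above background and that of *HAI3* on 1 of 3 such arrays that was, and the interval of *PP2CA* crosses 0 in *agb1* only.

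Before salt, the difference between *agb1* and WT was above 0 for 8 of 9 members (*HAI2* and *HAI3* turned negative with normexp on all spots, and *HAB1* without *agb1* 0 h replicate 3), with a median of 0.78 over the members and 0.00 over all genes tested. The groups did not overlap for 6 members that were higher and 1 that was lower in *agb1*, where 20% of all genes were higher and 20.3% lower without overlap. At 2-fold or more with an unadjusted p under 0.05, 2 of the 7 members measured on every array (*PP2CA* and *HAI1*) were higher in *agb1*, against 2.96% of all genes. *HAI3* met these limits against WT arrays of which 1 of 3 was well above background, and no fold is given for *HAI2*, which was dim in both groups. At 4 h all 9 differences were below 0, though that of *HAB1* turned positive under median scaling, with either normexp fit and without any of 4 arrays, and that of *AHG1* was 0.032 with normexp on all spots. The median was -0.74 over the members and 0.05 over all genes. The groups did not overlap for 4 of 9 members (*PP2CA*, *AHG1*, *HAI2* and *HAI3*), which were lower in *agb1*, where 7.06% of all genes were. By the same limits 3 members (*AHG1*, *HAI2* and *HAI3*) were lower at 4 h, against 2.5% of all genes. At an unadjusted p below 0.05 alone, 8 members were lower at 4 h, against 6.03% of all genes.

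**Figure D3:**
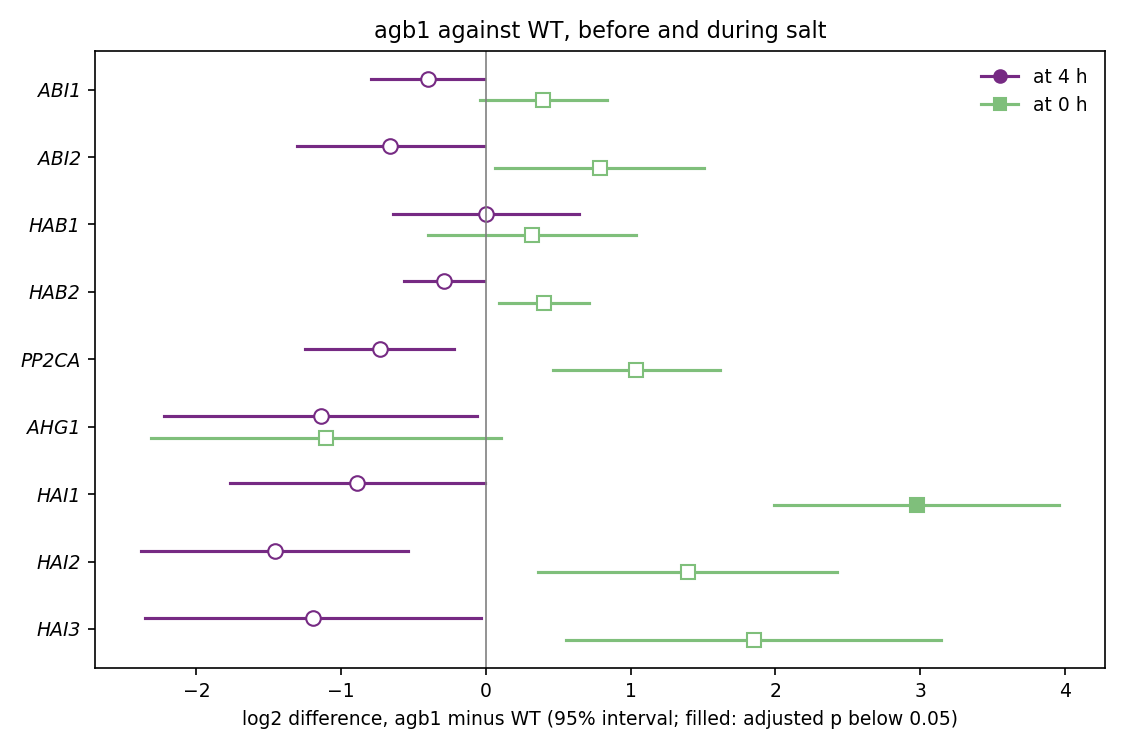
Log2 difference between *agb1* and WT roots for each clade A PP2C gene at 4 h (circles) and 0 h (squares) of 150 mM NaCl, with 95% intervals and filled symbols where the adjusted p was below 0.05. All members but *AHG1* lie above 0 at 0 h (with normexp on all spots *HAI2* and *HAI3* did not), all 9 lie below 0 at 4 h with *HAB1* at -0.00 (positive under median scaling and either normexp fit, as was *AHG1* with normexp on all spots), and *HAI1* at 0 h is the one filled symbol.

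The interaction, in which the WT salt response is taken from the *agb1* one, was below 0 for all 9 members, except that *AHG1* turned positive under quantile and median scaling, with 12 samples and without any of 4 arrays, *AHG1*, *HAI2* and *HAI3* did so with normexp on all spots (1.77, 0.97 and 0.49), and *HAB1* did without *agb1* 0 h replicate 3 (0.16). The median was -1.45 over the members and 0.05 over all genes. It equals the difference between genotypes at 4 h minus that at 0 h. For *HAI1* the interaction was -3.86 ± 0.58 (95% interval -5.18 to -2.54), so that the rise was 14.5-fold smaller in *agb1*. Of this, 77.0% came from the higher level in *agb1* before salt and the rest from the 4 h difference. With normexp the share was 31.4% when all spots were fitted and 68.4% without the darker spots. The same share was 58.6% for *PP2CA*, 54.3% for *ABI2*, 49.6% for *ABI1* and 60.7% for *HAI3*. At an unadjusted p below 0.05, 7 of 9 interactions were negative, against 5.21% of all genes. The interactions of *HAI2* (-2.85 ± 0.61, adjusted p = 0.125) and *HAI3* (-3.05 ± 0.77, adjusted p = 0.183) rested on WT 0 h values at or near background.

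The adjusted p of the *HAI1* interaction was 0.0497, and it was over 0.05 when any of 9 of the 12 arrays was left out (0.0174 to 0.163 over all 12, interaction -4.28 to -3.58). The arrays whose removal kept the call were WT 4 h replicate 1 and *agb1* 0 h replicates 1 and 2. When the 12 arrays were counted as 12 samples it was -3.93 (adjusted p = 0.0127). Within the 2 slides that held all 4 groups, the interaction of *HAI1* was -3.36 on slide 1 and -3.79 on slide 3, and that of *PP2CA* was -1.35 and -1.44. *AHG1* was at 1.64 on slide 1 and -2.48 on slide 3, so that its sign differed between slides.

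**Figure D4:**
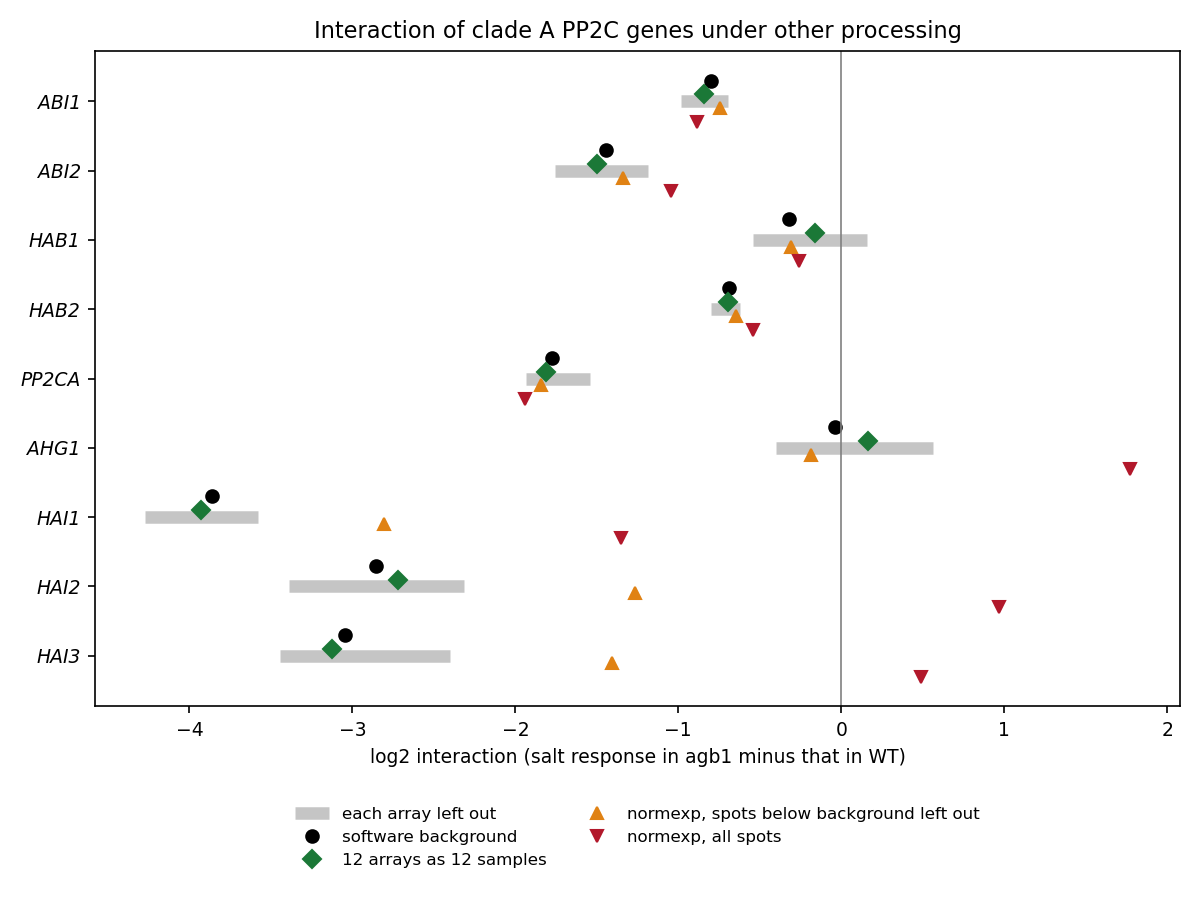
Interaction (*agb1* salt response less the WT one, log2) of each clade A PP2C gene with the software's background correction, with 12 arrays counted as 12 samples, and with normexp background correction fitted to all spots or without spots below their local background; grey bars span the values with each array left out. *HAI1* lies at -3.86, and normexp on all spots moves *HAI1* to -1.35 and *HAI2* and *HAI3* above 0.

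The genes closest to each member but *HAI2* and *HAI3* over the 12 arrays were found by the root mean square difference of log2 signal after each gene's mean was subtracted, among 23214 other genes well above background on every array. The measure is a description over arrays of the same 4 groups. *HAI1* was closest to *LEA4-5*, a late embryogenesis abundant gene, at 0.491, followed by AT3G15670 at 0.800 and *LEA7* at 0.908. *PP2CA* was closest to AT3G62590 at 0.226 and *SIP1*, a raffinose synthase gene, at 0.282, and *ABI1* to *FBH3* at 0.182 and to *LTI30*, a dehydrin gene, at 0.197. AT3G62590 and the borate transporter gene *BOR4* were among the 3 closest genes of both *PP2CA* and *ABI2*. Among the 7 members well above background on all 12 arrays, *ABI1* and *ABI2* were the closest pair at 0.310. *HAI1* was the farthest from the other members compared, at 2.18 to 2.81, with its larger change. The other *HAI* genes, *HAI2* and *HAI3*, were dim at 0 h and were not compared. For *ABI2*, *ABI1* ranked 5th among these genes and *PP2CA* 8th.

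Upstream of the phosphatases, 11 of 14 PYR/PYL receptor genes were tested. Under salt 1 rose and 0 fell in *agb1*, where 1.41% of all genes rose, with a median of -0.01 over the receptors. At an unadjusted p under 0.05 in limma 3 rose and 0 fell, where 22.1% of all genes passed in either direction. In WT 1 rose and 6 fell, where 8.84% of all genes rose and 11.2% fell, with a median of -0.98. *PYL6* fell by 3.32 in WT (adjusted p = 0.000158), *PYL4* by 1.20 (adjusted p = 0.00517) and *PYL2* by 1.39 (adjusted p = 0.00680). *PYL6* was also lower in *agb1* than in WT at 0 h, with a difference of -1.94 (adjusted p = 0.0219), and its interaction was 2.74 (adjusted p = 0.0469).

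Of all genes tested, 1.41% rose and 0.706% fell with salt in *agb1*, and 8.84% rose and 11.2% fell in WT. Downstream, 0 of 10 SnRK2 kinase genes rose in *agb1* (2 at an unadjusted p under 0.05 in limma) and 3 in WT, *SNRK2.7* by 0.85 (adjusted p = 0.0138), *SNRK2.9* by 0.90 (adjusted p = 0.0323) and *SNRK2-8* by 2.19 (adjusted p = 0.0336). *ABF3*, a bZIP factor of the pathway, rose by 1.33 in *agb1* (adjusted p = 0.00284) and 1.36 in WT (adjusted p = 0.000173), and of 5 ABF and *ABI5* genes 1 rose in *agb1* and 3 in WT. Of the partners of clade A PP2Cs, 7 of 9 were tested, and 1 rose in *agb1* and 3 in WT. *HB7* and *HB12*, HD-Zip factors known to be induced by water deficit, rose in WT by 3.93 (adjusted p = 4.92e-05) and 6.43 (adjusted p = 8.58e-05). *HB12* was 4.07 higher in *agb1* than in WT at 0 h (adjusted p = 0.0104), and its interaction was -4.18 (adjusted p = 0.0565). Of 16 PP2C genes outside clade A, 0 were called in *agb1* (2 higher and 3 lower at an unadjusted p under 0.05 in limma), and 1 rose and 2 fell in WT, with a median of -0.29. In *agb1*, 22.1% of all genes had an unadjusted p under 0.05 in either direction.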

How the data were processed

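Single-colour Agilent arrays of *Arabidopsis* roots were analysed from the Feature Extraction output, 1 file per array, that the authors deposited. The intensity used is the processed signal, which per the file headers (Feature Extraction 10.7.1.1; the labels name 9.1) had been corrected for background and was not scaled between arrays. The probes numbered 43603, of which 34340 matched 25421 loci by locus name or RefSeq accession. Control and outlier spots (2 to 28 per array) were left out, spots of a probe were averaged, and log2 values were taken relative to each array's 75th percentile. The brightest probe of a gene was used, and a gene entered the test if all arrays of 1 or more groups had it well above background. This gave 25211 genes, 20549 of them with a locus.

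The model of 4 group means (limma 3.58.1, R 4.3.3, lmFit and eBayes) gave 5 comparisons over 11 samples, with Benjamini-Hochberg adjustment. The paper states 3 independent biological replicates per group, while p-values measure only the spread between these samples. The members, gene lists and tests were chosen with earlier results of these data known. Members were named by locus, and nearest genes by the smallest root mean square difference. Same-numbered replicates deviated together at 4 h (correlation 0.351 to 0.582) but not at 0 h (-0.197 to -0.00308), so that numbers pair samples at 4 h only. Slides 1 and 3 hold all 4 groups, slide 4 holds 3 and slide 2 holds 1 array. The model was tested on simulated data, but no result of that test is given here. Sequences of promoters, proteins and probes were not used here, and no coordinates are given, since the design of the array is older than the assembly of the name table (TAIR10.1).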

Additional observations from a re-analysis of the deposited data

Results flagged for a closer look

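The salt responses of the genotypes differed for *HAI1*, with an interaction of -3.86 (limma adjusted p = 0.0497), and for the ABA receptor gene *PYL6*, with an interaction of 2.74 (adjusted p = 0.0469). *HAI1* rose less in *agb1* than in WT. *PYL6* fell in WT, and its fall was not called in *agb1*. Between *agb1* and WT, *PYL6* differed by -1.94 at 0 h (adjusted p = 0.0219) and by 0.80 at 4 h (adjusted p = 0.217). Its interaction is the 4 h difference minus the 0 h difference. *HAI1* rose by 3.78 in *agb1* and by 7.65 in WT, and its interaction had the same sign on both slides that held all 4 groups.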

How the results depend on the processing

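Over 14 alternatives other than leaving out an array, 534 of 575 values for single members kept their direction and side of the threshold, and over 12 arrays left out 515 of 540 did, with no called value changing direction. Normexp background correction with an offset of 50 called 0 members in *agb1* under salt, 0 for *agb1* against WT at 0 h and 0 in the interaction. Of all genes it called 0.0476% higher in *agb1* under salt, 0.00793% higher in *agb1* at 0 h and 0% lower in the interaction. The main fit called 1.41%, 0.591% and 0.0873%. The normexp fit estimated a background mean of -744, -233 and -432 on WT 0 h replicate 3, WT 0 h replicate 2 and *agb1* 4 h replicate 3, which held 5, 3 and 3 spots below their local background, and it moved the median of all genes by 0.30 in the interaction. Its values that changed direction were *AHG1* in WT under salt at -0.52, *HAI2* and *HAI3* at 0 h at -1.81 and -1.45, *HAB1* and *AHG1* at 4 h at 0.000259 and 0.032, and the interactions of *HAI2*, *HAI3* and *AHG1* at 0.97, 0.49 and 1.77. The same correction fitted without such spots, chosen after seeing the data, called 1 member at 0 h and 0 in the interaction, with *HAI1* at 1.92 (adjusted p = 0.0485) and -2.81 (adjusted p = 0.0852), and *HAB1* at 4 h at 0.025. It called 0.456% of all genes higher at 0 h and 0.0635% lower in the interaction.

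With median scaling, quantile normalization, a 75th percentile taken only over probes above background everywhere, no filter, or a filter on all arrays, 0 interactions of members were called, with *HAI1* at adjusted p-values of 0.0514, 0.0535, 0.0514, 0.0750 and 0.0540. In the same order, 0.0754%, 0.0754%, 0.0873%, 0.0519% and 0.0430% of all genes tested were called lower in the interaction. The filter on all arrays called 2 members in *agb1*, since it tests 7 of them. With 12 samples, 3 members were called at 0 h and 2 in the interaction, and with slides as a random block 3 and 2, while 3.80% and 3.76% of all genes were called higher at 0 h and 0.666% and 0.647% lower in the interaction. Both fits called 6 members in *agb1* under salt, *ABI2* and *HAB1* among them, where 6.62% and 6.58% of all genes rose. With the replicate block 2 were called at 0 h (*HAI1* and *PP2CA*) and 0 at 4 h, where the numbers pair the samples, and with only the groups compared 2 at 0 h. Of all genes, 3.13% with the replicate block and 2.15% with only the groups compared were called higher at 0 h. The interaction of *AHG1* changed sign to 0.00293 under quantile normalization, 0.018 under median scaling, 0.16 with 12 samples, 0.16 with slides as a block and 0.16 with the replicate block, and *HAB1* at 4 h to 0.029 under median scaling. The paired fit changed no other call. Leaving out 1 array gave 0 to 1 members called at 0 h and 0 to 1 in the interaction. It gave -0.40 to 0.57 for the interaction of *AHG1*, -0.23 to 0.15 for *HAB1* at 4 h, -0.16 to 0.39 for *HAB1* at 0 h and -0.54 to 0.16 for its interaction. The causes were not tested. With 3 arrays in a group, the number of arrays limits precision, and *HAI2* and *HAI3* at 0 h lie near background.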
